A study of Homo sapiens with 9 samples.

Results

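Small proline-rich proteins are short proteins of squamous epithelia such as the epidermis, where transglutaminases cross-link them to one another and to other precursors, among them involucrin, to build the cornified envelope beneath the plasma membrane of a terminally differentiated keratinocyte. Their genes lie side by side in the epidermal differentiation complex on chromosome 1, which also holds the genes of loricrin, filaggrin and many S100 calcium-binding proteins. The family is known to respond to stress and injury in simple epithelia as well, the intestine included.

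The members were 8 named genes, SPRR1A, SPRR1B, SPRR2A, SPRR2D, SPRR2E, SPRR2F and SPRR3 of the small proline-rich family and IVL, which encodes involucrin. They were chosen by name on their expression in these same libraries, so their values are given as a description and without a p-value. Of the 8 genes, 7 were found among the 33861 genes of the table, and IVL was not analysed here. The libraries came from HCT116, an established human colorectal carcinoma line, and total RNA was sequenced after removal of ribosomal RNA. The 3 control libraries came from cells labelled NC, the 3 activin libraries from cells given 100 ng/mL activin A for 5 days, and the 3 activin + HGF libraries from cells given the same activin treatment and then 20 ng/mL HGF for another 5 days. Activin A is a ligand of the TGF-beta family that signals through SMAD proteins, and HGF, hepatocyte growth factor, is the ligand of the receptor tyrosine kinase MET. The cells of all groups were grown in DMEM with 10% fetal bovine serum. The culture time of the control cells is not given in the sources used here, and HGF cannot be told apart from the 5 further days in culture. Whether activin was kept on during the HGF days is not given either. HGF therefore cannot be told apart from a possible removal of activin. The labels do not say that the replicates were separate cultures, so the spread between them may be technical.

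The libraries held 57453977 to 77016167 counts each. Of 10 intestinal epithelial markers, 6 had at least 1 FPKM (the authors' level per gene length and library size) in every library of each group. These were EPCAM, CDH1, KRT8, KRT18, KRT19 and CDX2. The summed level of the 10 was 556 to 875 FPKM over the 9 libraries, mostly from EPCAM, KRT8, KRT18 and KRT19. VIL1 (at most 0.03 FPKM), CDH17 (at most 0.14) and LGALS4 (at most 0.28) were low in all 9 libraries. CDX1, a defining intestinal factor, was listed at 0 in all libraries except activin replicate 3. Summed fibroblast markers reached at most 6.04 FPKM, endothelial markers 0.38 FPKM and leukocyte markers 9.37 FPKM, the last mostly CD68.

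The SPRR genes with a row formed 1 uninterrupted block of 10 genes, from base 152985231 to base 153150890 of chromosome 1 (GRCh38), a span of 165.7 kb. SPRR1A, SPRR3 and SPRR1B lie on the plus strand, and the 7 SPRR2 genes on the minus strand. The files list SPRR1A at 152985231 to 152985500, SPRR3 at 153001747 to 153003855, SPRR1B at 153031203 to 153032900, SPRR2D at 153039732 to 153041931, SPRR2A at 153056120 to 153057512, SPRR2E at 153093135 to 153106184 and SPRR2F at 153112121 to 153113516. SPRR1B and SPRR2D are neighbours on opposite strands, with 6831 bases between them. Apart from SPRR2C, for which no coding sequence was found in GENCODE 29, the genes have 1 coding exon each. That of SPRR2D (153040128 to 153040346) encodes 72 codons, of which 37.5% are proline, 16.7% cysteine and 16.7% glutamine. SPRR1B has 89 codons with 29.2% proline, and SPRR3 has 169 codons with 22.5% proline.

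The SPRR2 members are so alike that their coding sequences are shown here, since they bear on how far the counts of these genes can be told apart. The sequences are those of the GRCh38 reference (GENCODE 29), 219 bases each with the stop codon, 5′ to 3′, and capitals mark the bases that differ from SPRR2D.
SPRR2D: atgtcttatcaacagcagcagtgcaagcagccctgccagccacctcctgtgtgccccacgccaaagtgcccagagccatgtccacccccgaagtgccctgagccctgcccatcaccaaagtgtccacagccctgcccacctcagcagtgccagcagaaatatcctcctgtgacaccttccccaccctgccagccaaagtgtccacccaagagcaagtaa
SPRR2A: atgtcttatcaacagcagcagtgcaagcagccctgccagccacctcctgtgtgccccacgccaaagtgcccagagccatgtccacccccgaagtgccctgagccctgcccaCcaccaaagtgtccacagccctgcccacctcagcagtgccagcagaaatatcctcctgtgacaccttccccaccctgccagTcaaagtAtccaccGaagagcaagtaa
SPRR2E: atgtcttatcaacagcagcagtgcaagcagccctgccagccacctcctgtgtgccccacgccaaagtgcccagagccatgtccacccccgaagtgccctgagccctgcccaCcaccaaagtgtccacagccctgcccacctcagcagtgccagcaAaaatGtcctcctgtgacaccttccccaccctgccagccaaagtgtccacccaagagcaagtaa
SPRR2F: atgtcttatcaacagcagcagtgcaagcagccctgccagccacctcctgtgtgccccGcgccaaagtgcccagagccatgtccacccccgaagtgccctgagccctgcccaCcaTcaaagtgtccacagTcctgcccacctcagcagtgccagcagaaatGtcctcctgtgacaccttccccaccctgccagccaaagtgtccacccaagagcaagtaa
SPRR2A differs from SPRR2D at 4 bases (98.2% identity), SPRR2E at 3 bases (98.6%) and SPRR2F at 5 bases (97.7%). Over the annotated transcripts of SPRR2D, 19.3% of all windows of 50 bases and 3.7% of all windows of 100 bases were also present in another SPRR gene. For SPRR2A these shares were 32.7% and 20.3%, for SPRR2E 23.4% and 11.3%, and for SPRR1B 4.4% and 0.0%. How reads that fit several genes were counted is not given in the sources used here, so the low counts of SPRR2A, SPRR2E and SPRR2F are uncertain beside those of SPRR2D.

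Control cells had no count for any SPRR gene. All 7 members, and all 10 SPRR genes with a row, were at 0 counts in each of the 3 control libraries, which allows up to 0.049 CPM (3 counts in the smallest control library; CPM are counts relative to the TMM-scaled library size, and such limits and intervals cover counting error only). After activin, 5 of 7 members had counts in every library, and after activin + HGF 3 of 7 did. The genes SPRR2F and SPRR3 did not pass the filter on low counts, and the other 5 passed it through the treated groups alone. The counts of the table were not evenly spread at the low end, since 35.0% of all counts from 1 to 40 were multiples of 4, against 25% in an even spread, so small counts may not equal numbers of fragments.

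SPRR2D was by far the most abundant member. After activin its counts were 2002, 3020 and 2800, and after activin + HGF they were 710, 944 and 863. In CPM, activin replicates stood at 27.2, 48.3 and 37.3, against 13.0, 13.7 and 13.5 for activin + HGF. All activin libraries were above all activin + HGF libraries, and all of these were above the controls. The mean was 37.6 ± 10.6 CPM (SD, n = 3) after activin, at least 767-fold higher than the control limit, and 13.4 ± 0.345 CPM (SD, n = 3) after activin + HGF, at least 274-fold higher. The mean after HGF was thus 35.7% of that after activin alone, a log2 difference of -1.49 (SE 0.24). By mean FPKM, SPRR2D stood at place 926 of 33861 genes after activin and at place 3345 after activin + HGF.

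SPRR1B, the neighbouring gene and a precursor typical of stratified and stressed epithelia, had the second-highest level. Its counts were 59, 89 and 93 after activin, and 38, 37 and 6 after activin + HGF. Activin replicates gave a mean of 1.15 ± 0.32 CPM (SD, n = 3), at least 23.6-fold above the control limit. Activin + HGF libraries gave 0.443 ± 0.313 CPM (SD, n = 3), at least 9.04-fold above it, with replicate 3 far below the other two. The activin and activin + HGF libraries did not overlap, and the mean after HGF was 38.4% of that after activin, a log2 difference of -1.38 (SE 0.76). Without activin + HGF replicate 3 this difference was -0.90.

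**Figure D1:**
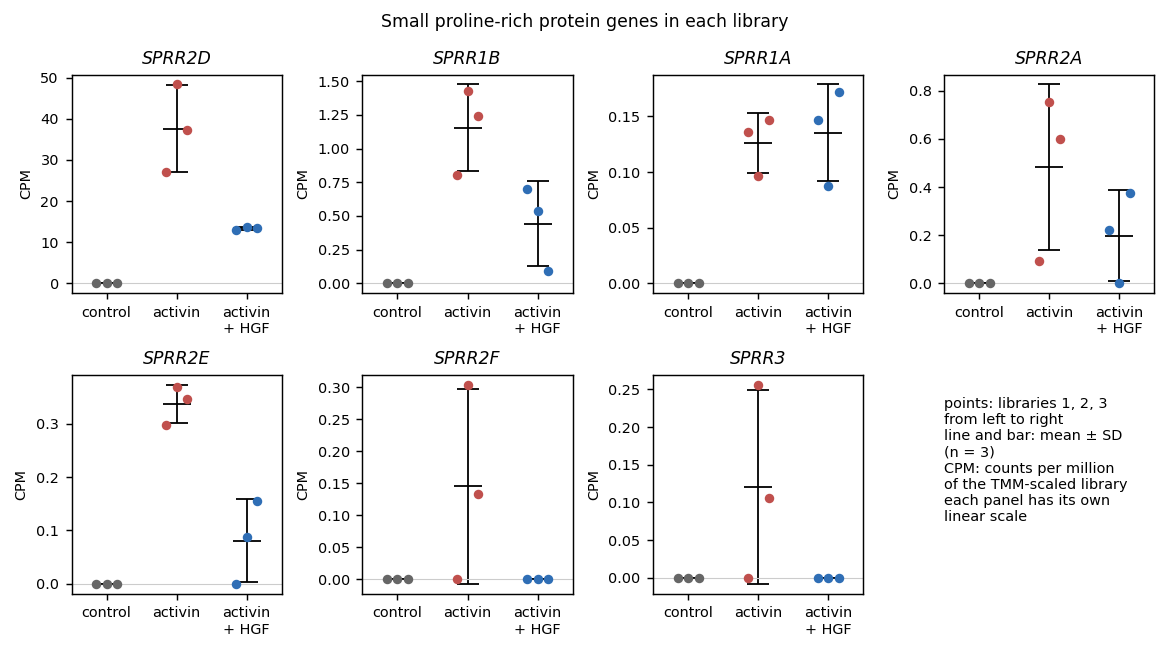
CPM of each of the 7 small proline-rich protein genes (y axis, own linear scale per panel) in the control, activin and activin + HGF libraries (x axis), with points for libraries and lines and bars for the mean ± SD (n = 3). All control points lie at 0, and the SPRR2D points after activin + HGF, 13.0 to 13.7 CPM, lie close together below those after activin, 27.2 to 48.3 CPM.

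The remaining members were far below SPRR2D. SPRR2E had 22, 23 and 26 counts after activin and 0, 6 and 10 after activin + HGF, groups that did not overlap, and its mean after HGF was 24.0% of that after activin. The log2 difference of SPRR2E was -2.02 (SE 1.29), and it was -1.46 without activin + HGF replicate 1 and -2.86 without activin + HGF replicate 3. SPRR2A varied widely among its replicates, with 7, 47 and 45 counts after activin and 12, 0 and 24 after activin + HGF, so the groups overlapped. SPRR1A, the paralog of SPRR1B, had 10, 6 and 11 counts after activin and 8, 6 and 11 after activin + HGF, and its means of 0.126 ± 0.027 and 0.135 ± 0.043 CPM (SD, n = 3) overlapped fully, with a log2 difference of 0.10 (SE 1.09). The row of SPRR1A spans 270 bases, which is its coding sequence alone.

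SPRR2F was found in 2 of the 3 activin libraries, with 0, 19 and 10 counts, and in none of the activin + HGF libraries. SPRR3, which is the longest protein of the family and is abundant in oesophagus, had 0, 16 and 8 counts after activin and 0 in all libraries after activin + HGF. A count of 0 in an activin + HGF library allows up to 0.055 CPM. The mean levels of SPRR2F and SPRR3 after activin, 0.146 and 0.121 CPM, were above this limit of 1 library but rested on few counts. No limit was computed for the mean of the group. For the same 2 genes activin replicate 1 was at 0, and that library also had the lowest count and CPM of SPRR2D, SPRR1B, SPRR2A and SPRR2E among the activin libraries.

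The order of the levels was compared per length. In the authors' FPKM, the activin group ran from SPRR2D (33.5 ± 6.81) over SPRR1B (1.74 ± 0.38), SPRR2A (0.643 ± 0.446), SPRR2E (0.433 ± 0.025), SPRR1A (0.417 ± 0.119) and SPRR2F (0.187 ± 0.190) to SPRR3 (0.070 ± 0.070; all SD, n = 3). SPRR2D and SPRR1B stood apart from each other and from the next gene, and from SPRR2A on each neighbour overlapped the next. After activin + HGF SPRR2D (9.33 ± 1.08 FPKM) again stood apart, whereas SPRR1B (0.497 ± 0.336 FPKM) overlapped SPRR1A (0.347 ± 0.110 FPKM). The FPKM and count of SPRR2D imply a gene length of 1215 to 1257 bases, longer than its 682-base reference transcript, so its true level per length depends on the length the authors used.

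SPRR2D made up nearly all SPRR counts in every treated library. Its share was lowest in activin + HGF replicate 1, with 91.4% (95% exact Clopper-Pearson interval 89.2 to 93.3%), and highest in activin + HGF replicate 2, with 95.1% (93.5 to 96.3%). The 3 activin libraries lay between 93.0% and 94.8%, so the groups overlapped in this share. Summed over all SPRR genes, the level was 28.6, 51.7 and 40.1 CPM after activin and 14.3, 14.4 and 14.3 CPM after activin + HGF.

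Of the members, 5 met the rule for a higher call in activin against control (edgeR adjusted p under 0.05 and at least 1 on the log2 scale), where 6.78% of the 20988 genes tested were called higher and 4.62% lower. In activin + HGF against activin, 1 member, SPRR2D, met it for a lower call, where 4.21% of genes were called lower and 3.87% higher. In activin + HGF against control, 4 members met it for a higher call, all that passed the filter except SPRR2E, where 11.3% of genes were called higher and 10.2% lower. These counts follow from the choice of the members, and nothing is read from them. The fits that left out 1 library rest on the same choice and are given as a description. In them SPRR2D and SPRR1B met the rule against control without any single library. The calls of SPRR1A, SPRR2A and SPRR2E did not hold in this way, as 2 members were called in activin against control without any 1 of the control libraries.

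The SPRR genes outside the members were also low, SPRR2B at levels within the range of the low members. SPRR2B had 8, 7 and 13 counts after activin and 5, 0 and 5 after activin + HGF. SPRR2C had 3, 0 and 6 after activin and none after activin + HGF, and SPRR2G had 0 after activin and 4, 0 and 0 after activin + HGF. None of the 3 passed the filter. SPRR4 and SPRR5 were not analysed here.

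Around the block, from S100A10 to S100A1, the table held 18 other genes that are neither SPRR nor S100, of which 4 passed the filter. Among the 4, a gene listed as BX470102, at 547.1 kb from SPRR2D, was called higher with activin and lower between activin + HGF and activin. Its means were 0.936, 2.41 and 0.655 CPM in control, activin and activin + HGF, and it was named after its values were seen. Another gene listed as BX470102, at 493.9 kb, was not called in any comparison. Among the late envelope genes of the complex, 9 of 33 listed had a row and 2 passed the filter, TCHH (trichohyalin, of hair follicle and tongue) and HRNR (hornerin). TCHH, named here after its values were seen, rose by 2.48 (SE 0.53) on the log2 scale with activin (edgeR adjusted p = 0.00966), from 0.047 ± 0.035 to 0.290 ± 0.036 FPKM (SD, n = 3). This call was lost with limma on log2(FPKM + 1). HRNR was below 0.1 FPKM in the mean of each group and did not pass the test in any comparison. In the late list 0 genes were called between activin + HGF and activin, with 0 at an unadjusted p under 0.05 and 0 by DESeq2. Most of the 13 S100 genes on both sides were expressed in control cells already. Of the 12 tested 4 rose and 2 fell with activin, where 6.78% of all genes tested were called higher and 4.62% lower.

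**Figure D2:**
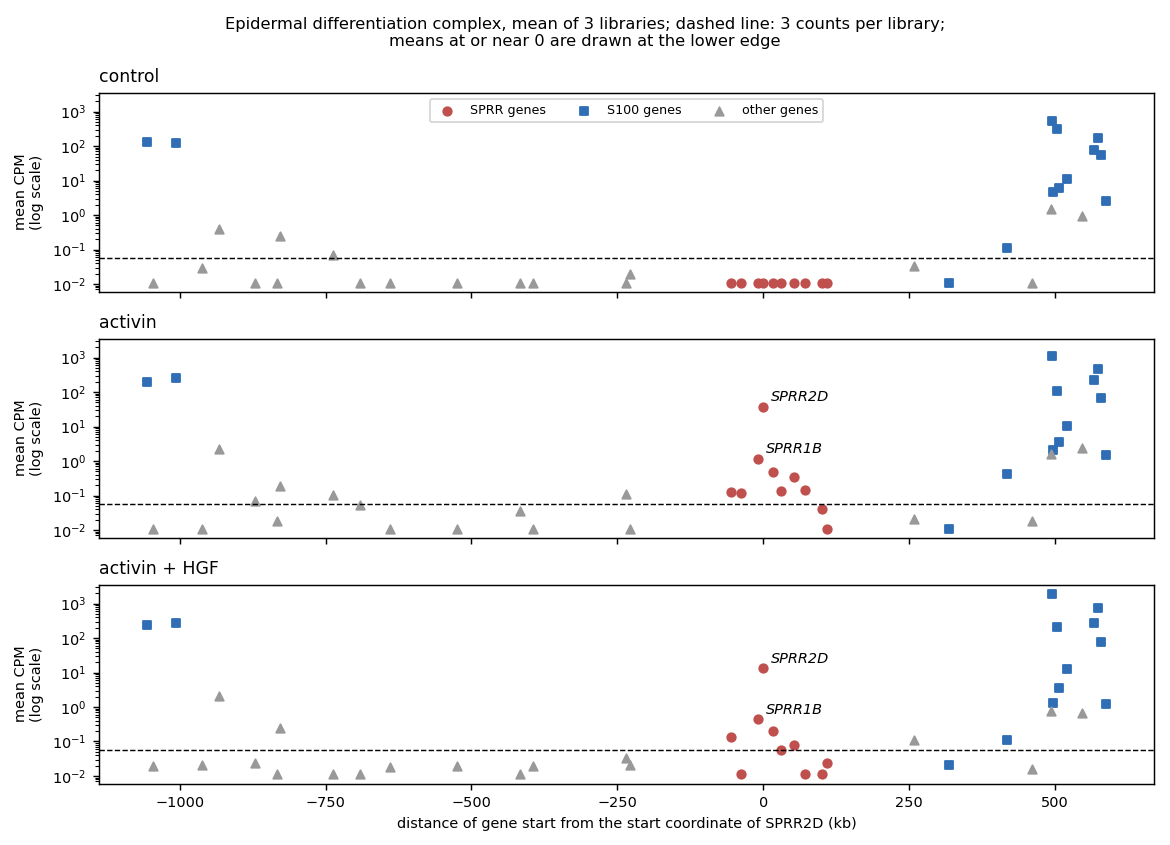
Mean CPM (y axis, log scale) of the genes from S100A10 to S100A1 against the distance of their start from that of SPRR2D in kb (x axis), in the 3 groups. The 10 SPRR genes lie at 0 in control cells, drawn at the lower edge, and SPRR2D reaches 37.6 CPM after activin and 13.4 CPM after activin + HGF. The dashed line marks 3 counts in the library of smallest TMM-scaled size, activin + HGF replicate 1 (0.055 CPM).

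The pattern of the 2 members with at least 1 FPKM in a group, SPRR2D and SPRR1B, was compared with 12309 named genes by Pearson's r over the 9 libraries, which fall into the 3 groups. The 6 genes most like it were GOLGA7B (r = 0.99), NLRP1, SUN3, MYO15B, UPP1 and TRIM25 (r = 0.98 each). UPP1, a uridine phosphorylase, had 1.61 ± 0.18 FPKM in control, 44.3 ± 3.80 after activin and 15.9 ± 0.49 after activin + HGF (SD, n = 3). NLRP1, an inflammasome sensor of epithelial cells, had 0.443 ± 0.046, 2.06 ± 0.10 and 1.26 ± 0.13 FPKM. TRIM25, a ubiquitin ligase of antiviral signalling, had 16.4 ± 0.65, 47.2 ± 1.36 and 27.5 ± 1.67 FPKM. All of these genes were expressed in control cells, unlike the members.

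The 5 member promoters in RefSeq (GRCh38.p14) were searched on both strands for short motifs, over the 250 bases before the start. SPRR2D and SPRR2E had no entry. The motifs were chosen after these promoters had been seen, and a match describes the letters and not a bound site. The AP-1 motif TGANTCA was in 5 of 5 member promoters and in 6.6% of 35116 promoters, and the TATA motif TATAAA in 4 of 5 and 10.7%. The octamer ATTTGCAT was in 2 of 5 (1.6% of all), the ETS motif AGGAAG in 3 (28.7%), the IRF motif GAANNGAAA in 1 (6.6%), the KLF or SP motif GGGNGGGG in 2 (36.0%) and the SMAD motif CAGACA in 1 (13.6%). In SPRR2A the ETS and IRF matches overlap. The promoter of SPRR1B, the best-expressed member with an entry, is shown with those of SPRR2A and SPRR2F, the SPRR2 members with an entry. They run 5′ to 3′ on the gene's strand, from chr1:153030953-153031202 (plus), chr1:153057513-153057762 (minus) and chr1:153113517-153113766 (minus), and capitals mark the AP-1, ETS, IRF, octamer and TATA matches.
SPRR1B: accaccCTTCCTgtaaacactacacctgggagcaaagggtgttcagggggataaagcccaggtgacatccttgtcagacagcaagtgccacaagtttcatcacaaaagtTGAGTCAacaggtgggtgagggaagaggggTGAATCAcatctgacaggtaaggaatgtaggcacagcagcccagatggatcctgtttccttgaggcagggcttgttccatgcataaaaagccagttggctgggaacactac
SPRR2A: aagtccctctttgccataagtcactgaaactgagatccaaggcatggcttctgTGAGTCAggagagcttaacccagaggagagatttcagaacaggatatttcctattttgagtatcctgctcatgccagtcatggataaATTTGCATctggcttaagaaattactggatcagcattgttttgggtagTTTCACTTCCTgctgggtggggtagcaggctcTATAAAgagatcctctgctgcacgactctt
SPRR2F: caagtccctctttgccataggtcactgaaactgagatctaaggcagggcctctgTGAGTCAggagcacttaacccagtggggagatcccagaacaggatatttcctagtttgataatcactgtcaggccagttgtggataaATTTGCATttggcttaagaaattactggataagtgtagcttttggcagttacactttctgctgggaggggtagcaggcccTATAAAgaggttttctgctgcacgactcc
SPRR1B has 2 AP-1 matches, at -141 to -135 and at -111 to -105 from the start, and SPRR2A and SPRR2F have 1 each, at -197 to -191 and at -196 to -190. SPRR1A has its match at -108 to -102 and SPRR3 at -170 to -164.

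Transcription factors known from squamous differentiation, AP-1 subunits among them, rose in number with activin. Of 36 listed, 33 were tested and 15 rose with activin, where 6.78% of all genes tested were called higher. By DESeq2 15 rose, at an unadjusted p under 0.05 21 did, and 0 fell by any of these counts. The factors had a median log2 difference of 1.00, against 0.02 over all genes tested. This and the other lists were chosen with earlier results of these data known, so their counts do not test the lists. Of the AP-1 subunits, JUN was at 5.36, 5.18 and 4.82 FPKM in control and at 39.1, 50.3 and 40.5 FPKM after activin, a log2 rise of 3.02 (SE 0.33, edgeR adjusted p = 0.000308). JUNB rose by 2.65 (SE 0.29, edgeR adjusted p = 0.000288) and FOSL1, which encodes Fra-1, by 2.27 (SE 0.28, edgeR adjusted p = 0.000549). KLF4, a factor of late epidermal differentiation, was at 6.19, 6.04 and 2.77 FPKM in control and at 35.6, 37.1 and 33.7 FPKM after activin, without overlap, a log2 rise of 2.75 (SE 0.34, edgeR adjusted p = 0.000536). CEBPB, of the C/EBP family, rose by 2.55 (SE 0.28, edgeR adjusted p = 0.000315) and ETS1 by 1.87 (SE 0.18, edgeR adjusted p = 0.000167). The other 9 rose by 1.10 to 3.79 on the log2 scale.

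Several AP-1 genes rose at the HGF step, at which SPRR2D was lower. Between activin + HGF and activin, 5 of the 33 factors rose and 1 fell, where 3.87% and 4.21% of all genes tested did. The list median was 0.34 on the log2 scale, against -0.04 over all genes tested. FOS was at 5.23, 6.66 and 4.64 FPKM after activin and at 28.6, 19.5 and 11.9 FPKM after activin + HGF, a log2 rise of 2.25 (SE 0.36, edgeR adjusted p = 0.00676). JUN rose by 1.72 (SE 0.32, edgeR adjusted p = 0.0103), JUND by 1.11 (SE 0.22, edgeR adjusted p = 0.0135) and JUNB by 1.06 (SE 0.27, edgeR adjusted p = 0.0325). The call of JUN was lost without activin replicate 1 (1.54), and that of JUND without activin replicate 1 or 3 (0.92 to 0.93). That of JUNB was lost without any 1 control library, activin replicate 1 or 3, or activin + HGF replicate 1 (0.76 to 1.05). HES1, a repressor downstream of Notch, rose by 1.42 (SE 0.20, edgeR adjusted p = 0.00488). The factor that fell, POU2F3, an octamer-binding factor of keratinocytes and tuft cells, was named after its values were seen and was low throughout, at 0.123 ± 0.050 and 0.017 ± 0.012 FPKM (SD, n = 3). Its call was lost without any 1 library other than activin + HGF replicate 3 (-2.68 to -2.06), and also with the replicate block, with only the groups compared, without a filter and with limma. Against control, 18 of 33 factors were higher after activin + HGF and 0 lower (1 at an unadjusted p under 0.05, 0 by DESeq2). Of all genes tested 11.3% were called higher there and 10.2% lower. The list median was 1.24, against -0.03 over all genes tested.

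**Figure D3:**
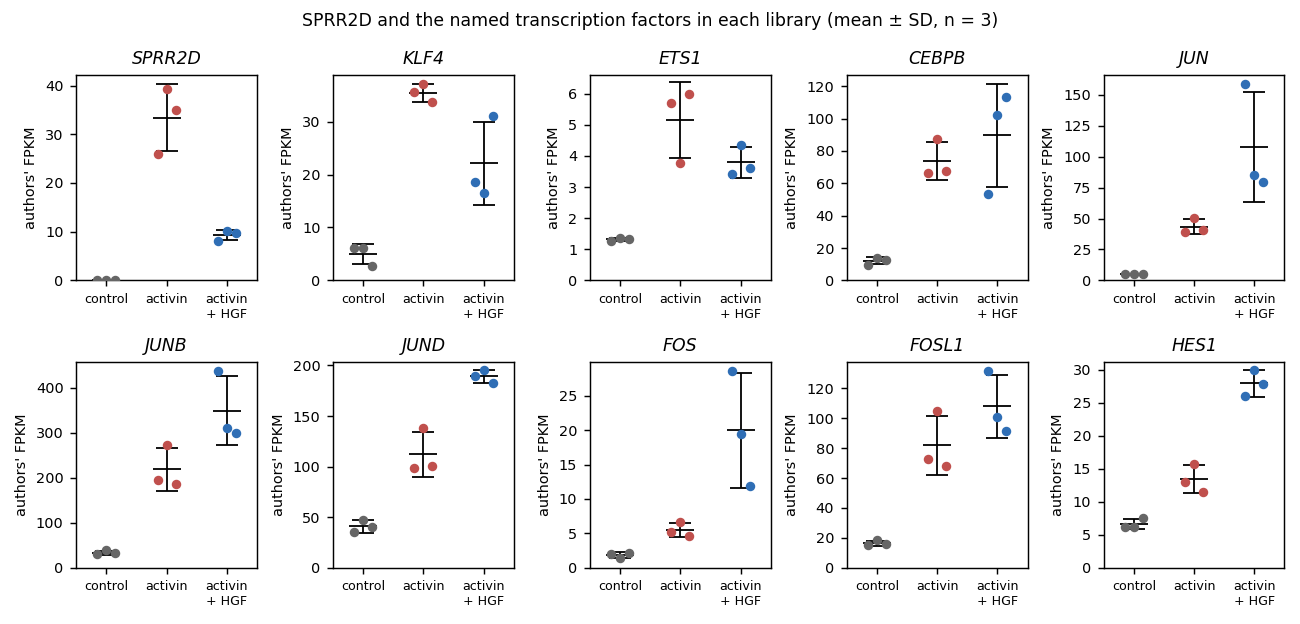
The authors' FPKM (y axis, linear, own scale per panel) of SPRR2D and 9 transcription factors in control, activin and activin + HGF libraries (x axis), with points for libraries and lines and bars for the mean ± SD (n = 3). SPRR2D goes from 33.5 FPKM after activin to 9.33 FPKM after activin + HGF, while FOS goes from 5.51 to 20.0 FPKM and HES1 from 13.4 to 27.9 FPKM.

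The other cornified envelope and cross-linking genes were mostly not called. Of 24 listed, 18 had a row and 15 were tested. With activin 4 rose, where 6.78% of all genes tested were called higher. Of these listed genes 0 fell, with none lower at an unadjusted p under 0.05 or by DESeq2. Their median log2 difference was 0.78, against 0.02 over all genes tested. CSTA, cystatin A and itself an envelope precursor, was at 2.31, 2.75 and 2.70 FPKM in control and at 9.75, 11.6 and 11.8 FPKM after activin, a log2 rise of 2.02 (SE 0.23, edgeR adjusted p = 0.000403). CST6, cystatin M/E, a protease inhibitor of the upper epidermis, rose by 1.49 (SE 0.25, edgeR adjusted p = 0.00278). ALOXE3, a lipoxygenase of the epidermal lipid barrier, rose by 1.53 (SE 0.33, edgeR adjusted p = 0.00966). The fourth, SCEL, which encodes sciellin, was named after its values were seen and had 0.090 ± 0.036 FPKM (SD, n = 3) after activin and was at 0 in control. The call of SCEL was lost with limma on log2(FPKM + 0.1) and on log2(FPKM + 1).

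Between activin + HGF and activin, 1 gene of this list rose and 1 fell, where 3.87% and 4.21% of all genes tested did. The list median was -0.36 on the log2 scale, against -0.04 over all genes tested. ALOXE3 fell by 1.57 on the log2 scale (SE 0.33, edgeR adjusted p = 0.0154), from 3.81, 4.49 and 3.27 FPKM to 0.51, 1.43 and 1.16 FPKM, so its groups did not overlap. CST6 rose by 1.01 (SE 0.25, edgeR adjusted p = 0.0269), a call lost without control replicate 1 or 2, activin replicate 1 or 3, or activin + HGF replicate 1 or 2 (0.80 to 1.03). TGM1, the transglutaminase that cross-links small proline-rich proteins and was named after its values were seen, had 0.387 FPKM in control, 0.710 after activin and 0.380 after activin + HGF as means and did not pass the test in any comparison. Against control, 5 genes of the list were higher after activin + HGF, where 11.3% of all genes tested were called higher. The 1 lower gene was CDSN, which was listed at 0 after activin + HGF and whose groups overlapped. The call of CDSN was lost without any 1 library other than control replicate 1, and with the replicate block or limma. The higher genes included CST6, CSTA at 2.44 (SE 0.24, edgeR adjusted p = 8.63e-05) and CNFN, which encodes cornifelin, at 1.84 (SE 0.47, edgeR adjusted p = 0.0144). The call of CNFN was lost without control replicate 1 or 3 (1.61 to 1.69).

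Kallikreins, the serine proteases that degrade corneodesmosomes, and their inhibitors included 3 genes that rose at the HGF step. Of 10 tested, 2 rose and 0 fell with activin (0 lower at an unadjusted p under 0.05 and by DESeq2). Of all genes tested 6.78% were called higher there. The list median was 0.64 on the log2 scale, against 0.02 over all genes tested. Between activin + HGF and activin 3 rose and 0 fell, again with 0 lower by either other count. Of all genes tested 3.87% were called higher there, and the list median was 0.91, against -0.04 over all genes tested. KLK5 was at 0.28, 0.28 and 0.30 FPKM in control, at 1.18, 1.59 and 1.48 after activin and at 4.45, 3.92 and 4.66 after activin + HGF. All 3 groups stood apart, with log2 rises of 2.21 (SE 0.28, edgeR adjusted p = 0.000584) and 1.99 (SE 0.27, edgeR adjusted p = 0.00408) at the successive steps. KLK10 rose by 1.55 (SE 0.26, edgeR adjusted p = 0.00281) and by 1.01 (SE 0.26, edgeR adjusted p = 0.0306), and KLK6 rose at the HGF step by 1.05 (SE 0.29, edgeR adjusted p = 0.0398). The HGF-step calls of KLK10 and KLK6 were each lost without any 1 library other than activin replicate 2 (0.77 to 1.04 and 0.74 to 1.14). Against control, 7 of 10 were higher after activin + HGF, where 11.3% of all genes tested were called higher. Among the 7 were KLK8 and the inhibitors SPINT1 and SPINT2. The calls of both inhibitors were lost with library totals (0.96 and 0.82) and limma, and that of SPINT2 also without activin + HGF replicate 1 (0.95).

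Few desmosome genes, which join keratinocytes to one another, were called. Of 12 tested, 0 were called with activin (by DESeq2 1 higher, and at an unadjusted p under 0.05 1 higher and 2 lower). The median log2 difference was -0.22, against 0.02 over all genes tested. Between activin + HGF and activin 1 rose, PERP, a membrane protein of desmosomes and a p53 target, by 1.02 (SE 0.17, edgeR adjusted p = 0.00705), from 66.2 ± 4.25 to 103 ± 9.91 FPKM (SD, n = 3), a call lost without control replicate 1 or 2, activin replicate 1 or 3, or activin + HGF replicate 1 (0.86 to 0.94). Against control, PERP was higher after activin + HGF and DSG4, at 0.067 ± 0.040 FPKM (SD, n = 3) in control and listed at 0 after activin + HGF, lower. The call of PERP against control was lost with library totals (0.90) and limma (0.86 to 0.87), and that of DSG4 without control replicate 1 or 3 or activin + HGF replicate 2 or 3, and with limma. With only the groups compared, neither DSG4 nor CDSN passed the filter. Over the lists together, 72 genes were tested. With activin 22 (30.6%) rose, against 6.78% of all genes tested. In the lists 0 fell (2 lower at an unadjusted p under 0.05, 0 by DESeq2), against 4.62% of all genes. Between activin + HGF and activin 10 (13.9%) rose, against 3.87% of all genes, and 2 fell, against 4.21%. In activin + HGF against control 32 (44.4%) were higher, against 11.3%, and 2 lower, against 10.2%. The lists were chosen with earlier results of these data known, so these shares do not test the lists. Scaled by library totals, 4 and not 10 genes rose between activin + HGF and activin, namely KLK5, HES1, JUN and FOS, and the median of all genes tested was then -0.38.

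**Figure D4:**
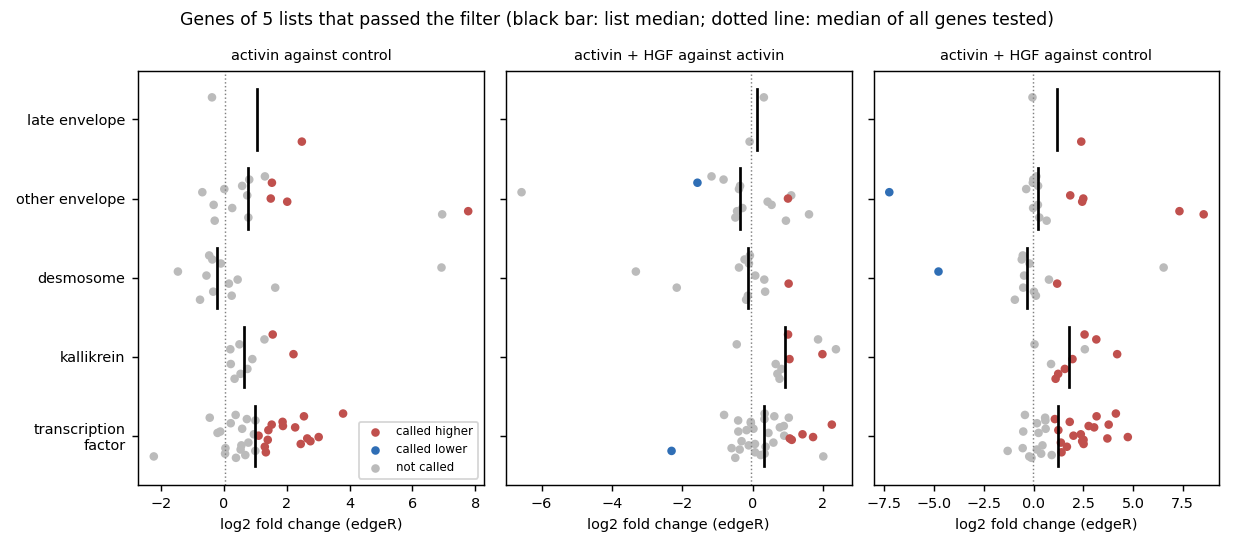
The log2 fold change (x axis) of each tested gene of 5 lists (rows) in the 3 comparisons, with called genes coloured, the list median as a bar and the median of all genes as a dotted line. The transcription factors have a median of 1.00 with activin, and points beyond about 5 on either side belong to genes at 0 in 1 of the groups, whose fitted size is not a bound.

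Markers of keratinocytes and squamous cells moved with the members in part. Of 12 listed, 9 had a row, and their summed level was 9.03 to 9.68 FPKM in control, 21.2 to 27.2 after activin and 52.8 to 71.9 after activin + HGF, so it was highest where SPRR2D was lower. KRT10 gave most of this sum, with 6.78 to 7.53 FPKM in control, 19.0 to 25.3 after activin and 47.1 to 68.5 after activin + HGF. KRT14, a basal keratin, was at 0 to 0.03 FPKM in control, 0.51 to 0.55 after activin and 0.47 to 0.81 after activin + HGF. KRT16, a keratin of stressed epidermis, was at 0.06 to 0.27, 0.76 to 1.4 and 0.83 to 1.9 FPKM, also without overlap between control and the treated groups. KRT13, of mucosal squamous epithelium, was lower after activin (0.15 to 0.35 FPKM) than in control (1.10 to 2.06) or after activin + HGF (1.49 to 3.51). The other 5 were low in all 9 libraries, TP63, a master factor of stratified epithelia, at most 0.04 FPKM, DSG3 at most 0.11, KRT6A at most 0.26, TRIM29 at most 0.27 and KRT5, the partner of KRT14, at most 0.30. The part of these markers in the SPRR values was not tested. In bulk RNA, more cells with SPRR transcripts and more transcripts per cell cannot be told apart.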

How the data were processed

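Total RNA of 9 HCT116 libraries, 3 per group, had been depleted of ribosomal RNA and sequenced. In 1 table the authors deposited counts of each gene and, beside them, FPKM scaled by the authors to library size and gene length. The submitters' processing notes name cutadapt 1.9, HISAT2 2.0.4 and StringTie 1.3.4d. The build is not given in the sources used here, and 97.5% of the gene IDs shared with GENCODE 29 lay within 1000 bases of its GRCh38 starts.

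Groups and replicate numbers followed the library titles. Counts were filtered with filterByExpr, scaled by TMM and tested by the quasi-likelihood F-test of edgeR 4.0.16 (R 4.3.3), with 1 mean per group over the 9 libraries and no block. The fit covered 20988 genes. The SE given with an edgeR log2 fold change is its size divided by the square root of the test's F, and is not a spread between replicates. A gene was called where its p, adjusted after Benjamini and Hochberg, was under 0.05 and its log2 fold change was 1 or more in size. CPM used the TMM-scaled library sizes, and folds against control are lower bounds against 3 counts in its smallest library. These bounds take the treated mean as it stands, without its spread. Because TMM and library totals differ in these libraries, FPKM ratios and edgeR log2 fold changes are not the same quantity. Tests were tried on simulated data first, where the edgeR calls fell short of a guessed recovery cutoff. That cutoff was replaced by limits on bias and false calls after the result was seen, so a gene not called may still differ. Depth was 57453977 to 77016167 counts, and 3 libraries per group limit the precision.

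The members and lists were chosen with earlier results of these data known. Lists covered other SPRR genes, late and other envelope genes, desmosomes, kallikreins and transcription factors. From each list and comparison the called genes with a mean of at least 1 FPKM in the higher group were named, at most 6, by p. The likeness used log2(CPM + 0.1). Promoters were RefSeq entries (5 of 7 members matched), coding sequences GENCODE entries, and the region bounds and window sizes were set after the files were seen. Alternatives were DESeq2 1.42.0, limma 3.58.1 on log2(FPKM + 0.1) and log2(FPKM + 1), other scalings and filters, a replicate block, fewer libraries and summed SPRR2 counts. Lower bounds under other scalings were added after the data were seen.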

Additional observations from a re-analysis of the deposited data

How the results depend on the processing

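Leaving out 1 library at a time gave 2 to 5 members called in activin against control (5 with all libraries), 1 in each fit of activin + HGF against activin (1), and 2 to 4 in activin + HGF against control (4). It was 2 in activin against control without any 1 control library or activin replicate 3, 3 without activin replicate 1 or 2, and 2 in activin + HGF against control without any 1 control library or activin + HGF replicate 3. Listed genes called were 20 to 24 higher and 0 to 1 lower in activin against control (22 and 0), 3 to 14 higher and 1 to 2 lower in activin + HGF against activin (10 and 2), and 29 to 33 higher and 0 to 2 lower in activin + HGF against control (32 and 2). The 10 became 3 without activin replicate 1, and 5 without activin replicate 3, control replicate 1, control replicate 2 or activin + HGF replicate 1.

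With a replicate block the members called were 2 in activin against control and 2 in activin + HGF against control, and the listed genes lower were 1 in activin + HGF against activin and 1 against control, while the block moved no other count past 1.5 times. Deviations of same-numbered libraries correlated at -0.10 to 0.20 over 9 pairs, so the numbers were not taken as pairs. With only the groups compared, 3 and 1 members were called against control. SPRR1A and SPRR2A did not pass the filter in either of these fits, nor did SPRR1B and SPRR2E in activin + HGF against control. The listed genes were then 4 higher and 1 lower in activin + HGF against activin and 0 lower against control. Library totals left 4 listed genes higher in activin + HGF against activin. With limma on log2(FPKM + 0.1), 3 members were called in activin + HGF against activin, with 4 listed genes higher and 1 lower there and 1 lower against control. On log2(FPKM + 1), 2 and 1 members were called against control, with 4 listed genes higher and 1 lower in activin + HGF against activin, and 21 higher and 1 lower against control. DESeq2 called 4 listed genes lower in activin + HGF against activin, and no filter left 1. By adjusted p alone, 1 listed gene was lower with activin, 16 were higher in activin + HGF against activin, and 4 were lower in activin + HGF against control. Summing the SPRR2 genes made 3 features called with activin. Beyond the filter with only the groups compared, the cause was not tested, and fewer libraries or features enter some of these fits.

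The log2 difference of SPRR2D between activin + HGF and activin was -1.49, and -1.81 with library totals. Of 38 named gene and comparison pairs, 26 were called in every other fit and 0 reversed.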
